A study of Mus musculus with 34 samples.

Results

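The nuclear genes for subunits of the respiratory chain and of ATP synthase are described here at the level of histone marks around their ends. They were chosen by symbol among the mouse RefSeq genes: all protein-coding genes whose symbols start with Ndufa, Ndufb, Ndufc, Ndufs, Ndufv, Uqcr, Cox4i, Cox5, Cox6, Cox7, Cox8 or Atp5, together with Sdha, Sdhb, Sdhc and Sdhd, with the Ndufaf assembly factors left out. This gave 88 genes of 21631 protein-coding genes. By symbol, 41 belong to complex I, 4 to complex II, 8 to complex III, 18 to complex IV and 17 to complex V. Ndufa4 stands with complex I by its symbol, although its protein is now placed in complex IV. Ndufb4b and Ndufb4c are near-copies of Ndufb4, so the reads at these 3 genes are uncertain.

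Microglia of the hippocampus, from control mice (Ctrl) and from mice of a group labelled FGR, were profiled by ULI-NChIP-seq, in which chromatin of few cells is immunoprecipitated without crosslinking and the bound DNA is sequenced. The series title relates the groups to intrauterine growth restriction. Each group has 4 libraries for each of H3K4me3, H3K9ac, H3K27ac and H3K9me3. All mice of both groups carry 1 Tmem119-tdTomato allele, a red fluorescent reporter in a microglial gene (Tmem119-tdTomato+/-), and the labelled age is 3 weeks after birth, except that replicate 4 carries no age. The sources used here do not give how the FGR group was produced or how the cells were isolated. The labels do not say that the 4 libraries of a group came from separate animals, so the p-values measure the spread between these libraries, which may be technical.

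Complexes I and II pass electrons from NADH and succinate to coenzyme Q, complex III passes them on to cytochrome c, and complex IV passes them to oxygen. Complexes I, III and IV pump protons across the inner mitochondrial membrane, and ATP synthase, complex V, uses the returning protons to make ATP. A few subunits are encoded by mitochondrial DNA and all others by nuclear genes, most of them active in every cell type, while some have isoforms made mainly in muscle, lung or testis. H3K4me3, H3K9ac and H3K27ac are marks of active promoters, the last also of active enhancers, and H3K9me3 marks silent chromatin.

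The value of a gene is the length, in kb, that the authors' peaks cover within 2.5 kb of either end of the gene. It measures how far called peaks extend and not how many reads lie under them, and the depth of the libraries is unknown because the files are peak lists. In 57 of the 88 windows an end of another protein-coding gene also lies, so cover there may belong to the neighbour. In these bulk samples, a change in the makeup of the cells and a change in the mark per cell cannot be told apart. Values of single libraries are given in the order of replicates 1 to 4, as numbered in the sample titles. The peak names of replicate 4 in H3K4me3 and H3K9me3 carry another number, so the numbering of these libraries is uncertain.

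The lists themselves differed between the groups. The number of peaks per H3K4me3 list was 16598 to 18391 (Ctrl) against 43175 to 49045 (FGR), that of H3K9ac lists 42220 to 47729 against 54853 to 87128, and that of H3K27ac lists 45988 to 50116 against 53492 to 78143. The narrowest H3K4me3 peaks measured 275 to 280 bp (Ctrl) against 148 to 150 bp (FGR), the narrowest H3K27ac peaks 267 to 284 bp against 148 to 151 bp, and the narrowest H3K9ac peaks 262 to 271 bp against 252 to 260 bp. Over the 88 genes, cover in the FGR H3K4me3 libraries was closer to Ctrl H3K9ac (mean r = 0.891, range 0.879 to 0.906 over 16 library pairs) than to Ctrl H3K4me3 (0.700, range 0.619 to 0.759). Cover in the FGR H3K9ac libraries had a mean r of 0.720 with Ctrl H3K9ac and of 0.405 with Ctrl H3K4me3, and FGR and Ctrl H3K27ac had one of 0.918. These r are across genes that share libraries and are a description. Over all protein-coding genes the order was the same, with a mean r of 0.908 (Ctrl H3K9ac) and 0.822 (Ctrl H3K4me3). Over the 88 genes, Ctrl H3K4me3 libraries had a mean r of only 0.800 with each other (range 0.736 to 0.846). For Ctrl H3K9ac libraries it was 0.964. All 4 FGR H3K4me3 libraries thus stand nearer to another mark of Ctrl than to their own, and whether the marks of the 2 groups are like for like was not tested. All 6 microglia markers were covered in every library of these 3 marks. Their summed H3K4me3 cover was 13.5 to 16.5 kb (Ctrl) against 31.0 to 35.5 kb (FGR). Their sums were 33.2 to 34.8 kb (Ctrl) against 21.8 to 23.9 kb (FGR) in H3K9ac. In H3K27ac they were 52.4 to 52.9 kb (Ctrl) against 28.6 to 33.5 kb (FGR). The 5 neuron markers summed to 0 to 0.709 kb of H3K9ac in Ctrl and 3.37 to 5.03 kb in FGR, with Snap25 and Gad1 at 0 in both. H3K9ac of the 3 endothelial markers summed to 1.167 to 2.126 kb in Ctrl and 2.305 to 4.288 kb in FGR. The 4 oligodendrocyte markers had 1.525 to 2.813 and 2.972 to 4.36 kb, and the 4 astrocyte markers 3.136 to 4.182 and 1.821 to 4.862 kb. In H3K27ac the endothelial markers summed to 1.706 to 3.11 kb (Ctrl) against 0.894 to 1.645 kb (FGR). The oligodendrocyte markers had 2.22 to 3.008 against 1.194 to 1.734 kb of H3K27ac and the astrocyte markers 3.657 to 5.335 against 2.954 to 4.097 kb. H3K27ac of the neuron markers was 0 in Ctrl and 0 to 0.364 kb in FGR. H3K4me3 sums were higher in FGR for each of these cell types, as for the microglia markers. The part of these cell types in the results was not tested.

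H3K4me3 covered more of nearly every respiratory chain gene in FGR, at a level shared with the whole genome. Of 82 members with a peak in at least 2 libraries, 79 rose and none fell at an adjusted p under 0.05 (limma, Benjamini-Hochberg over all genes), where 95.5% of all 14043 genes tested rose and 0% fell; after quantile normalization, which makes all libraries of a mark alike in their distribution, the members split into 11 higher and 25 lower and all genes into 2220 and 3398. No tested member had a lower H3K4me3 mean in FGR, so the count at an unadjusted p under 0.05 was 0 as well. In all 79 genes, which are 96.3% of the members tested, every FGR library lay above every Ctrl library, beside 92.5% of all genes tested. H3K4me3 covered 68 to 72 of the 88 members in each Ctrl library, 62 of them in all, and 81 to 82 in each FGR library. Over all 21631 genes, 10757 to 11205 were covered in Ctrl and 13837 to 14077 in FGR. A gene without Ctrl cover can only rise and lie apart, so its direction is no finding. The median over the tested members was 0.738 kb (Ctrl) against 1.69 kb (FGR), with a median difference of 0.862 kb beside 0.887 kb over all genes. Quantile normalization took the median difference to -0.194 kb for the members and to -0.095 kb for all genes. The members' share of rises thus lies near the background.

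H3K9ac peaks covered a shorter length of many respiratory chain genes in FGR, in a larger share than over all genes, a difference between shares that was not tested. H3K9ac covered less in FGR at 42 of 84 members tested and more at 9, and 33 did not pass; over all 15605 genes tested, 28.5% rose and 30.0% fell. The rises made up 10.7% of the members tested. H3K9ac covered 12253 to 12463 of all 21631 genes in each Ctrl library and 14185 to 15415 in each FGR library. Of the 88 members it covered 78 to 81 in each Ctrl library and 83 to 84 in each FGR library. A gene without cover in Ctrl can only rise, and the part of this starting cover in the shares was not tested. The median was 1.60 kb (Ctrl) against 1.21 kb (FGR), the median difference being -0.356 kb, while over all genes it was 0.031 kb. Quantile normalization left 6 members higher and 40 lower and turned no call, and lists cut to equal length gave 7 higher and 49 lower of 83. All FGR libraries lay below all Ctrl libraries in 38 of the 42 genes (45.2% of the members tested, beside 27.4% of all genes) and above them in 8 of the 9 (9.52%, beside 24.5%). The members with no neighbour's end in their window showed the same direction, with 4 higher and 12 lower of 28 tested. H3K9ac peaks were also narrower in FGR, at members and in general. The median width of H3K9ac peaks in member windows was 1151 to 1274 bp (Ctrl) against 757.5 to 826 bp (FGR), and that of all H3K9ac peaks 634 to 696 bp against 407 to 459 bp. The strongest H3K9ac peak at a member had a median fold enrichment, the authors' value for a peak within its own list, of 11.3 to 12.2 in the Ctrl lists and 22.3 to 27.7 in the FGR lists. Cover thus gives the length of peaks and not their height, and the part of peak width in the falls was not tested.

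H3K27ac covered less in FGR at 69 of 80 members tested, and at none did it cover more by limma, at an unadjusted p under 0.05 either. Over all 11876 genes tested, 81.6% fell and 0.185% rose, so the members' 86.3% lies near the background. Their median was 1.80 kb (Ctrl) against 1.06 kb (FGR), with a median difference of -0.626 kb beside -0.707 kb over all genes. In 66 of the 69 genes (82.5% of the members tested, beside 72.7% of all genes), every FGR library lay below every Ctrl library. After quantile normalization 10 members were higher and 3 lower, and of all genes 1488 were higher and 1344 lower.

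Gene by gene, few of the H3K4me3 and H3K27ac calls outlasted quantile normalization. Of the 79 H3K4me3 rises it kept 11 (Ndufa1, Ndufa13, Ndufb10, Ndufb11, Ndufs6, Uqcr11, Cox6a1, Atp5d, Atp5h, Atp5o and Atp5pb), turned 22 into falls and left 46 without a call. Of the 69 H3K27ac falls it kept 3 (Ndufs1, Sdhd and Atp5j2), turned 5 into rises and left 61 without a call. Of the 51 H3K9ac calls it kept 42, turned none and left 9 without a call, namely the falls of Ndufa2, Ndufb6, Ndufv3, Atp5a1 and Atp5h and the rises of Ndufb4b, Ndufb4c, Cox4i2 and Cox6b2.

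**Figure D1:**
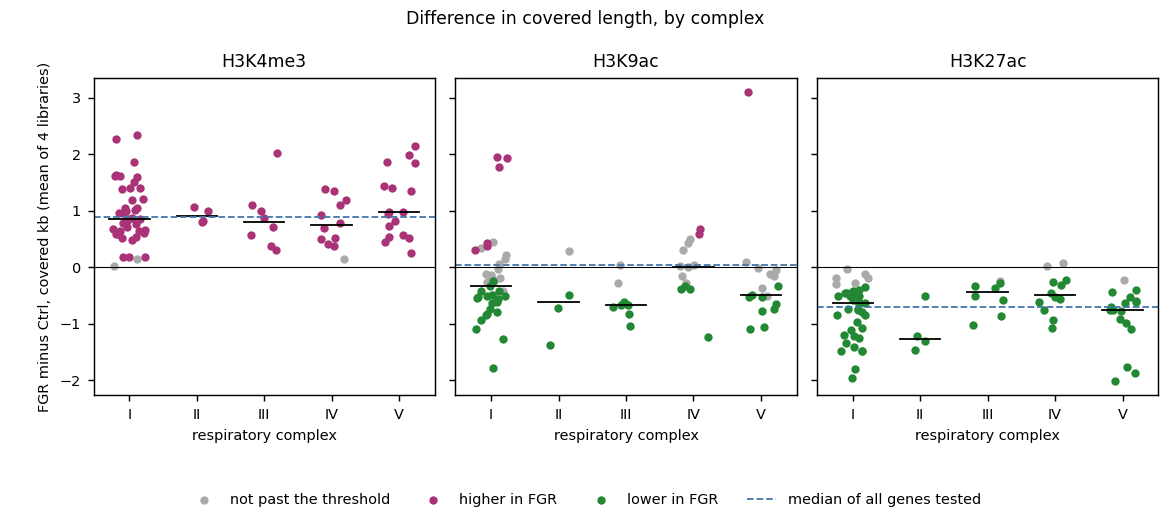
FGR minus Ctrl covered kb (vertical axis) of each member by complex (horizontal axis) in 3 marks, 1 point a gene tested, coloured by its limma call, with black bars at the medians of the complexes and a dashed line at the median of all genes tested. H3K4me3 points lie above 0 and H3K27ac points almost all below it, near the dashed lines, directions that quantile normalization does not keep, while H3K9ac points lie mostly below a dashed line near 0.

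Across the 3 marks, the most frequent combination was a longer H3K4me3 cover with a shorter cover of both acetyl marks. It was found at 40 of the 79 members tested in the 3 marks (50.6%), beside 36.7% of 11429 genes. A further 26 members (32.9%, beside 33.2%) had more H3K4me3, less H3K27ac and no call in H3K9ac. At 2 members H3K4me3 and H3K9ac were higher and H3K27ac lower, which is 2.53% beside 12.2% of all genes. Across the 79 members, the differences in H3K4me3 and H3K27ac had a Pearson r of -0.615 and a Spearman rho of -0.646, across genes that share libraries and gene windows. The r of the H3K9ac differences was 0.030 with H3K4me3 over 82 members and 0.103 with H3K27ac over 80 members.

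**Figure D2:**
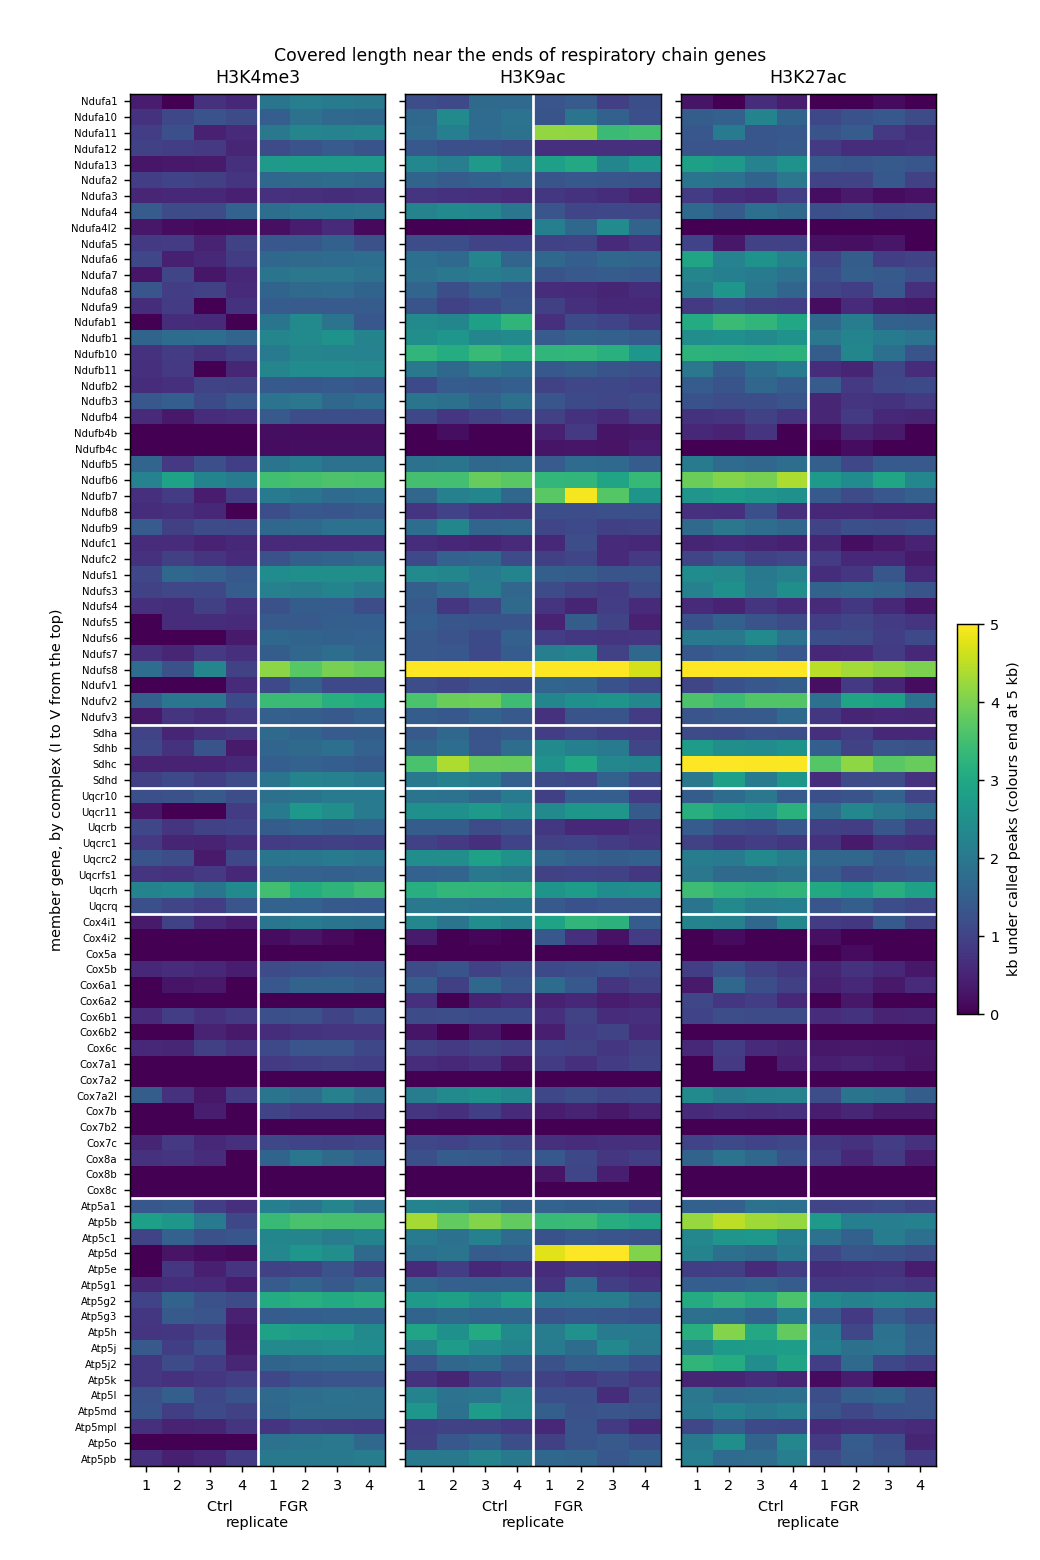
Covered kb (colour, ending at 5 kb) of 87 members (rows, by complex) in the 8 libraries of each of 3 marks (columns, Ctrl then FGR). Colours run from dark (0) to yellow (5 kb). The FGR columns of H3K4me3 are brighter and those of H3K27ac darker than the Ctrl columns, in the deposited lists without scaling, and a few rows stay near 0 throughout, most of them in complex IV.

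The 71 members with a start listed in the RefSeq promoter table show where around the start the peaks lay. At 50 bp upstream of the start, H3K27ac peaks covered 78.4% of members in Ctrl and 18.1% in FGR, averaged over libraries, while at 250 bp downstream they covered 92.3% and 77.0%. Over all 17274 listed genes the upstream values were 38.8% and 12.8%. H3K9ac cover was similar at the start (76.8% and 81.9% at 50 bp upstream, 94.2% and 96.1% at 250 bp downstream) and lower in FGR further into the gene, with 35.0% and 9.16% at 950 bp downstream. H3K4me3 was higher in FGR on both sides, with 31.8% and 69.7% at 50 bp upstream and 2.91% and 40.8% at 950 bp downstream. Over all listed genes, H3K9ac was 41.3% and 51.6% at 50 bp upstream and 25.2% and 18.5% at 950 bp downstream. H3K4me3 over all listed genes was 20.3% and 45.2% at 50 bp upstream and 10.1% and 30.0% at 950 bp downstream. These shares are descriptions without a test.

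**Figure D3:**
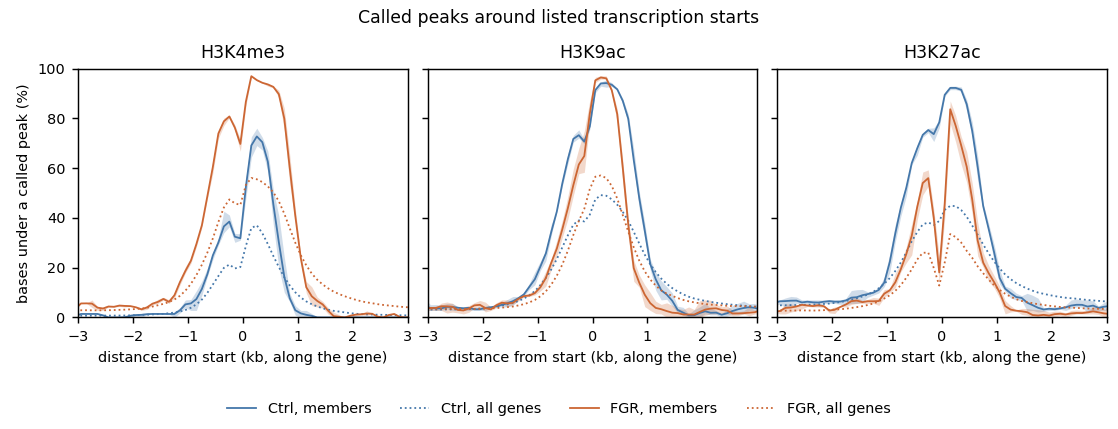
Percent of bases under a called peak (vertical axis) by distance from the listed start in kb (horizontal axis, 3 kb to each side) for 71 members (solid, mean of 4 libraries with a band from lowest to highest) and all listed genes (dotted), by mark and group. The FGR H3K27ac line of the members drops to 18.1% just upstream of the start, where the Ctrl line is at 78.4%, and the FGR H3K9ac line is narrower downstream.

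In FGR the start itself often lay in a gap between 2 H3K27ac peaks. Of the 71 member starts, 59 to 62 lay under an H3K27ac peak in the Ctrl libraries and 11 to 17 in the FGR libraries. A start with a peak within 1 kb on either side but none over it was found at 2 to 4 members in Ctrl (2.82% to 5.63%) and at 31 to 36 in FGR (43.7% to 50.7%). Over all listed genes this gap was found at 1.90% to 2.51% of starts in Ctrl and 17.8% to 19.9% in FGR. Starts under an H3K27ac peak made up 40.2% to 42.2% of all listed starts in Ctrl and 11.4% to 15.1% in FGR. The members' shares were 83.1% to 87.3% and 15.5% to 23.9%. No peak within 1 kb was found in Ctrl at 50.7% to 51.6% of all listed starts and at 5.63% to 7.04% of members. A gap needs peaks near the start, and the part of this difference in the gap shares was not tested. In 19 members the start lay under a peak in all Ctrl libraries and in a gap in all FGR libraries, among them Sdha, Sdhb, Sdhd, Ndufs8, Ndufv2, Atp5b and Cox5a. Another 8 stayed under a peak in all 8 libraries: Ndufs7, Ndufa4, Ndufa13, Ndufb1, Ndufb2, Ndufb5, Atp5g1 and Atp5l. H3K27ac peaks in member windows had a median width of 1256 to 1447 bp (Ctrl) against 424 to 459 bp (FGR), and all H3K27ac peaks of 825 to 919 and 314 to 365 bp, so narrower peaks in FGR were general. The part of peak width in the gaps was not tested. By contrast, 60 to 64 starts in Ctrl and 64 to 68 in FGR lay under an H3K9ac peak, and 25 to 30 and 50 to 55 under an H3K4me3 peak. For H3K9ac these are 84.5% to 90.1% and 90.1% to 95.8%, beside 44.2% to 45.8% and 53.3% to 57.3% of all listed starts. For H3K4me3 they are 35.2% to 42.3% and 70.4% to 77.5%, beside 22.3% to 25.0% and 47.5% to 49.9%. Both shares thus rose over all listed genes as well.

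**Figure D4:**
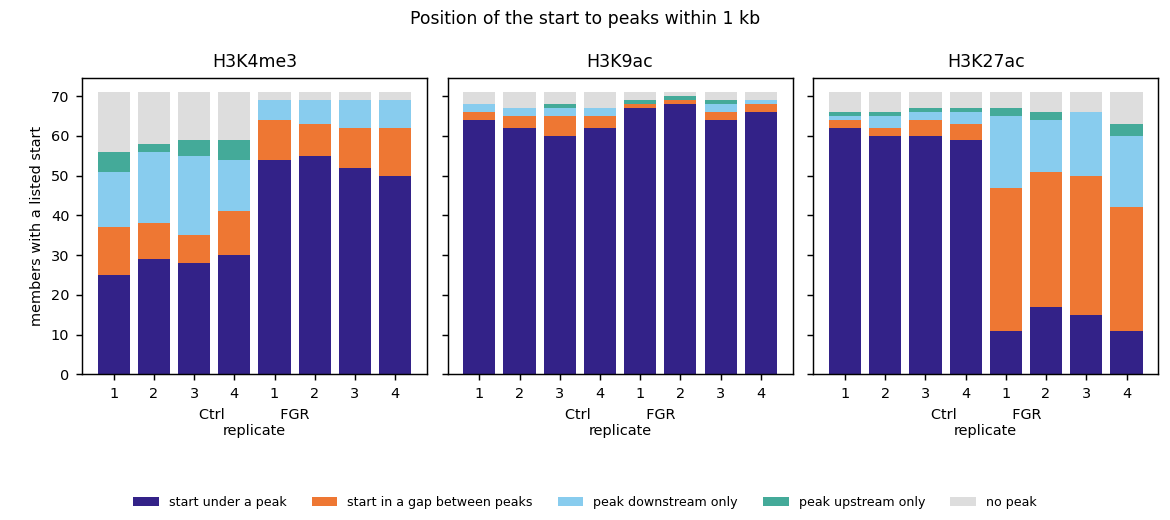
Number of the 71 member starts (vertical axis, stacked bars, 1 bar a library) that lay under a peak, in a gap between peaks within 1 kb, beside a peak on 1 side only, or near no peak, for 3 marks. The FGR H3K27ac bars hold 31 to 36 starts in a gap and the Ctrl bars 2 to 4.

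To show the DNA at member starts, the 250 bases upstream of 8 members are given from RefSeq (build GRCm38.p6), 5′ to 3′ on the strand of the gene. Cox6a1 (chr5:115348959-115349208, minus strand), Ndufb4 (chr16:37654369-37654618, minus) and Atp5g2 (chr15:102671048-102671297, minus) stand for members with the motif of nuclear respiratory factor 1 (NRF1), an activator of respiratory chain genes, and Uqcr11 (chr10:80406822-80407071, minus) for the motif of GABPA, an ETS family activator. Ndufab1 (chr7:122101849-122102098, minus) and Cox7a2l (chr17:83514334-83514583, minus) had the largest H3K9ac falls of complexes I and IV in the gene-end windows and hold none of the motifs. Cox7a1 (chr7:30183921-30184170, plus) and Cox8b (chr7:140900447-140900696, minus) are isoforms of heart and skeletal muscle with few CpG sites. Capitals mark the motifs GCGCANGCG (NRF1) and ACTTCCGG (GABPA) on either strand; overlapping matches run together. The Atp5g2 start was under an H3K27ac peak in all Ctrl libraries and in a gap in all FGR libraries. The Cox8b start had no H3K27ac peak near it in any library. The Uqcr11, Ndufab1 and Cox7a2l starts lay under an H3K27ac peak in all Ctrl libraries and varied between FGR libraries. The Cox6a1, Ndufb4 and Cox7a1 starts varied between libraries in both groups.
Cox6a1: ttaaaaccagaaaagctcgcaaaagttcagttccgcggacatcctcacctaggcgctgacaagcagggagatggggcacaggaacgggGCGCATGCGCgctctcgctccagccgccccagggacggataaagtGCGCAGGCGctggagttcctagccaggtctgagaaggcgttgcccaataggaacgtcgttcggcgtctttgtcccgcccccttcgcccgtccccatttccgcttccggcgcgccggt
Ndufb4: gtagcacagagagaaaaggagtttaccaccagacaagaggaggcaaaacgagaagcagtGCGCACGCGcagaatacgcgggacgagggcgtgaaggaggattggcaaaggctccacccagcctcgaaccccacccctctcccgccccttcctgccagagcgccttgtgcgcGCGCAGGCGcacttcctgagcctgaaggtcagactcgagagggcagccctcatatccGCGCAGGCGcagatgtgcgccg
Atp5g2: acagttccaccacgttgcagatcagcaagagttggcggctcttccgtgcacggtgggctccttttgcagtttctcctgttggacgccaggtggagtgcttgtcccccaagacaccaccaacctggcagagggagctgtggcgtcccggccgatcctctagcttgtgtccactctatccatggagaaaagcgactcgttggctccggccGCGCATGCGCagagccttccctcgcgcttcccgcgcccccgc
Uqcr11: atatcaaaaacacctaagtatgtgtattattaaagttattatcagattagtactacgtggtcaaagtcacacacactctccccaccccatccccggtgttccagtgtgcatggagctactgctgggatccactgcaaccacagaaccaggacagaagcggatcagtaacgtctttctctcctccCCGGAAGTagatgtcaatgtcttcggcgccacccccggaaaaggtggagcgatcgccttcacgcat
Ndufab1: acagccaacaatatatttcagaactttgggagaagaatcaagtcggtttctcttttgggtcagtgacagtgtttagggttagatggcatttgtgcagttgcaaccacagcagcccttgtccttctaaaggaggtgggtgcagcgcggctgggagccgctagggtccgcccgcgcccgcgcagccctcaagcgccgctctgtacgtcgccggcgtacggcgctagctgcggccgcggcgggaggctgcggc
Cox7a2l: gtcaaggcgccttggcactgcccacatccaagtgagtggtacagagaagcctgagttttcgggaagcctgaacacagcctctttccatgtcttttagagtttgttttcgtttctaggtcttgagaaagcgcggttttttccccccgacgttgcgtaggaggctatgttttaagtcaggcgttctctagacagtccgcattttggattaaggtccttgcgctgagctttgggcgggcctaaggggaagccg
Cox7a1: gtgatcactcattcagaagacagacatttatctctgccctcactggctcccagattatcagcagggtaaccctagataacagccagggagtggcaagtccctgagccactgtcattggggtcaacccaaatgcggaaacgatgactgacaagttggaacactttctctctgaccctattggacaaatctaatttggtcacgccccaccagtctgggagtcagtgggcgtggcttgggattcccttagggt
Cox8b: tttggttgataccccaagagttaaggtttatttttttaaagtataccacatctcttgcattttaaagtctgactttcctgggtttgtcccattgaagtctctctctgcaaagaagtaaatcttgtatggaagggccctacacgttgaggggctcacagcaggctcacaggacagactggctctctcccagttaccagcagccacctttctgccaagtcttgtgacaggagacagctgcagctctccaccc

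Motifs of NRF1 and YY1 stood in a larger share of member promoters than of promoters at large, a difference that was not tested. In the window of 250 bases before to 50 after the start, GCGCANGCG stood in 20 of 71 member promoters (28.2%) and in 9.73% of 17274 promoters. ACTTCCGG stood in 5 (7.04%, beside 5.76%), AAGATGGCG, the core of YY1 sites, in 7 (9.86%, beside 2.15%) and TCAAGGTCA, the core of ERRA sites, in 2 (2.82%, beside 0.382%). At least 1 of the 4 stood in 29 member promoters (40.8%, beside 16.4%). The members' median GC content was 57.3% beside 56.3%, and the median number of CpG sites in 300 bases 19 beside 14; Cox7a1 has 7 and Cox8b 2. A match is a description of letters and not a bound site. Windows around the start alone gave H3K9ac of 2.75 ± 0.158 kb (Ctrl) against 2 ± 0.189 kb (FGR) at Atp5g2 (SD over 4 libraries each; limma adjusted p = 0.000587), which makes a part of the ATP synthase ring, and 2.33 ± 0.167 kb (Ctrl) against 1.1 ± 0.055 kb (FGR) at Cox7a2l (limma adjusted p = 1.02e-05), which lacks the motifs. Both genes fell. Cox6a1, with 3 matches, had start-window H3K9ac of 1.37 ± 0.319 kb (Ctrl) against 1.11 ± 0.303 kb (FGR) (limma adjusted p = 0.253) and did not pass.

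Complex I, the NADH dehydrogenase, was tested in full for H3K4me3 and H3K9ac. Of its 41 genes, H3K4me3 rose at 39, which quantile normalization turned into 5 higher and 12 lower. H3K9ac fell at 20 and rose at 6, or 19 and 5 after quantile normalization. H3K27ac fell at 32 of 39 tested, which quantile normalization reduced to 1, with 3 higher. The 2 members without an H3K4me3 call were Ndufa4l2 and Ndufc1.

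Ndufs1, Ndufv1 and Ndufv2 form the part of complex I that takes electrons from NADH. Ndufs1 (chromosome 1, 63143592 to 63176822; an end of Eef1b2 also lies in the window) carries iron-sulfur clusters. Ndufs1 H3K4me3 cover was 1.06, 1.67, 1.57 and 1.38 kb in Ctrl and 2.44, 2.49, 2.47 and 2.48 kb in FGR, a difference of 1.05 kb (SE 0.126, limma adjusted p = 5.64e-05). Ndufs1 H3K9ac cover was 2.37, 2.29, 2.05 and 2.27 kb in Ctrl and 1.51, 1.48, 1.29 and 1.31 kb in FGR, a difference of -0.848 kb (SE 0.106, limma adjusted p = 0.000231). Ndufs1 H3K27ac cover was 2.44, 2.34, 2.01 and 2.19 kb in Ctrl and 0.651, 0.787, 1.33 and 0.57 kb in FGR, a difference of -1.41 kb (SE 0.175, limma adjusted p = 7.37e-05). The groups of Ndufs1 did not overlap in any of the 3 marks, and its H3K4me3 difference turned to -0.335 kb after quantile normalization. Ndufv1 (chromosome 19, 4007499 to 4012755; beside Doc2g) binds NADH. Ndufv1 H3K4me3 cover was 0, 0, 0 and 0.596 kb in Ctrl and 1.11, 1.51, 1.1 and 1.1 kb in FGR, a difference of 1.05 kb (SE 0.161, limma adjusted p = 0.000235). With a peak in 1 Ctrl library alone, Ndufv1 entered this test through its FGR peaks, so the direction of the call is no finding. Ndufv1 H3K9ac cover was 1.19, 1.06, 1.21 and 1.20 kb in Ctrl and 1.64, 1.56, 1.27 and 1.08 kb in FGR, a difference of 0.221 kb (SE 0.136, limma adjusted p = 0.186). Ndufv1 H3K27ac cover was 1.04, 1.26, 1.36 and 1.48 kb in Ctrl and 0.21, 0.844, 0.525 and 0.174 kb in FGR, a difference of -0.848 kb (SE 0.166, limma adjusted p = 0.00112). Its H3K9ac groups overlapped through FGR replicate 4, without which the difference was 0.324 kb (limma adjusted p = 0.0468). Ndufv2 (chromosome 17, 66078795 to 66101559; beside Ankrd12) holds a further iron-sulfur cluster. Ndufv2 H3K4me3 cover was 1.53, 1.97, 1.96 and 1.12 kb in Ctrl and 3.40, 3.42, 3.14 and 3.05 kb in FGR, a difference of 1.61 kb (SE 0.195, limma adjusted p = 6e-05). Ndufv2 H3K9ac cover was 3.59, 3.88, 3.89 and 3.45 kb in Ctrl and 2.3, 2.51, 2.58 and 2.31 kb in FGR, a difference of -1.28 kb (SE 0.132, limma adjusted p = 8.45e-05). Ndufv2 H3K27ac cover was 3.61, 3.44, 3.64 and 3.64 kb in Ctrl and 1.86, 2.92, 2.84 and 1.86 kb in FGR, a difference of -1.21 kb (SE 0.25, limma adjusted p = 0.00149). Ndufv2 followed the pattern of Ndufs1, and quantile normalization turned its H3K4me3 to -0.0182 kb and its H3K27ac to 0.206 kb.

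Ndufs7 and Ndufs8 lie on the way from the iron-sulfur clusters to coenzyme Q. Ndufs7 (chromosome 10, 80249105 to 80256794; beside Gamt) carries the last cluster before coenzyme Q. Ndufs7 H3K4me3 cover was 0.701, 0.53, 0.836 and 0.668 kb in Ctrl and 1.48, 1.64, 1.81 and 1.63 kb in FGR, a difference of 0.958 kb (SE 0.0955, limma adjusted p = 1.99e-05). Ndufs7 H3K9ac cover was 1.4, 1.35, 1.11 and 1.46 kb in Ctrl and 2.15, 2.26, 0.988 and 1.68 kb in FGR, a difference of 0.442 kb (SE 0.259, limma adjusted p = 0.169). Ndufs7 H3K27ac cover was 1.38, 1.49, 1.58 and 1.36 kb in Ctrl and 0.557, 0.619, 0.887 and 0.55 kb in FGR, a difference of -0.801 kb (SE 0.113, limma adjusted p = 0.000157). The Ndufs7 H3K9ac value depended on the window and on 1 library: around the start alone it was -0.543 kb (SE 0.101, limma adjusted p = 0.00134), and without FGR replicate 3 it was 0.703 kb (limma adjusted p = 0.00794). Ndufs8 (chromosome 19, 3908863 to 3912774; ends of Tcirg1 and Aldh3b1 in the window) binds 2 iron-sulfur clusters and had the largest H3K4me3 and H3K27ac changes of the complex. Ndufs8 H3K4me3 cover was 1.79, 1.25, 2.27 and 0.972 kb in Ctrl and 4.14, 3.7, 3.97 and 3.84 kb in FGR, a difference of 2.34 kb (SE 0.261, limma adjusted p = 3.7e-05). Ndufs8 H3K9ac cover was 5.49, 5.5, 5.18 and 5.10 kb in Ctrl and 5.38, 5.41, 6.02 and 4.67 kb in FGR, a difference of 0.054 kb (SE 0.256, limma adjusted p = 0.863). Ndufs8 H3K27ac cover was 5.89, 6.72, 6.03 and 6.14 kb in Ctrl and 4.48, 4.30, 4.17 and 4.01 kb in FGR, a difference of -1.96 kb (SE 0.185, limma adjusted p = 1.6e-05). After quantile normalization Ndufs8 H3K4me3 was 0.607 kb (limma adjusted p = 0.218), no longer called and below Ndufa13 at 1.15 kb, and its H3K27ac turned to 0.354 kb. Its H3K9ac groups overlapped.

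Among the accessory subunits of complex I, H3K9ac fell most at Ndufab1 and rose most at Ndufa4l2 (described with the isoforms), followed by Ndufa11 and Ndufb7. Ndufab1 (chromosome 7, 122086815 to 122101848; no other gene's end in the window) is the acyl carrier protein of mitochondria. Ndufab1 H3K4me3 cover was 0, 0.647, 0.595 and 0 kb in Ctrl and 1.93, 2.39, 1.93 and 1.36 kb in FGR, a difference of 1.59 kb (SE 0.239, limma adjusted p = 0.000209). Ndufab1 H3K9ac cover was 2.39, 2.3, 2.85 and 3.27 kb in Ctrl and 0.692, 1.13, 1.002 and 0.817 kb in FGR, a difference of -1.79 kb (SE 0.217, limma adjusted p = 0.000192). Ndufab1 H3K27ac cover was 3.08, 3.41, 3.3 and 3 kb in Ctrl and 1.69, 2.12, 1.54 and 1.50 kb in FGR, a difference of -1.48 kb (SE 0.158, limma adjusted p = 3.22e-05). No FGR library of Ndufab1 reached the Ctrl range in either acetyl mark. Around the start alone the Ndufab1 H3K9ac fall was smaller, at -0.516 kb (SE 0.151, limma adjusted p = 0.0147), and Ndufa4, with -1.004 kb (SE 0.116, limma adjusted p = 8.8e-05), had the largest of the complex there. Ndufa11 (chromosome 17, 56717762 to 56724248; beside Vmac) and Ndufb7 (chromosome 8, 83566758 to 83571623; beside Tecr) sit in the membrane part of the complex. Ndufa11 H3K9ac cover was 1.75, 2.16, 1.74 and 1.87 kb in Ctrl and 4.18, 4.17, 3.41 and 3.48 kb in FGR, a difference of 1.93 kb (SE 0.208, limma adjusted p = 0.000104). Ndufb7 H3K9ac cover was 1.66, 2.18, 2.29 and 1.68 kb in Ctrl and 3.72, 4.94, 3.68 and 2.59 kb in FGR, a difference of 1.78 kb (SE 0.427, limma adjusted p = 0.00655). Around the start alone the 2 genes were higher as well, with H3K9ac of 1.88 ± 0.192 kb (Ctrl) against 3.01 ± 0.377 kb (FGR) at Ndufa11 and 0.980 ± 0.0635 kb (Ctrl) against 1.71 ± 0.498 kb (FGR) at Ndufb7 (SD over 4 libraries each). The other rises were those of Ndufb8, Ndufb4b and Ndufb4c. Ndufb8 had 0.826 ± 0.118 kb (Ctrl) against 1.21 ± 0.0190 kb (FGR), and the near-copies Ndufb4b and Ndufb4c had differences of 0.420 and 0.308 kb. Of the 41 complex I genes, 38 to 39 had H3K9ac cover in each Ctrl library and 41 in each FGR library. The Ndufb4b start had no H3K9ac peak within 1 kb in any Ctrl library. A gene at or near 0 in Ctrl can only rise, so the direction of a call at such a gene is no finding.

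Complex II, succinate dehydrogenase, links the chain to the citric acid cycle. All 4 genes rose in H3K4me3 and fell in H3K27ac, and 3 fell in H3K9ac; after quantile normalization the counts were 0 of 4 in H3K4me3, 1 higher and 1 lower in H3K27ac and again 3 lower in H3K9ac. Sdha (chromosome 13, 74322255 to 74350240; beside Ccdc127) holds the flavin that oxidizes succinate. Sdha H3K4me3 cover was 1.01, 0.524, 0.715 and 0.792 kb in Ctrl and 1.74, 1.61, 1.44 and 1.48 kb in FGR, a difference of 0.806 kb (SE 0.116, limma adjusted p = 0.000162). Sdha H3K9ac cover was 1.4, 1.66, 1.3 and 1.4 kb in Ctrl and 0.905, 1.06, 0.933 and 0.873 kb in FGR, a difference of -0.495 kb (SE 0.106, limma adjusted p = 0.00365). Sdha H3K27ac cover was 1.15, 1.13, 1.22 and 1.21 kb in Ctrl and 0.677, 0.871, 0.564 and 0.549 kb in FGR, a difference of -0.511 kb (SE 0.104, limma adjusted p = 0.00142). The Sdha groups stood apart in all 3 marks, and quantile normalization turned H3K4me3 to -0.150 kb and H3K27ac to 0.114 kb. Sdhb (chromosome 4, 140961271 to 140979198; no other gene's end in the window) holds the iron-sulfur clusters. Sdhb H3K4me3 cover was 1.07, 0.73, 1.30 and 0.367 kb in Ctrl and 1.63, 1.72, 1.83 and 1.56 kb in FGR, a difference of 0.82 kb (SE 0.186, limma adjusted p = 0.00238). Sdhb H3K9ac cover was 1.6, 1.81, 1.32 and 1.78 kb in Ctrl and 2.4, 2.15, 2.08 and 1.04 kb in FGR, a difference of 0.290 kb (SE 0.276, limma adjusted p = 0.376). Sdhb H3K27ac cover was 2.75, 2.47, 2.41 and 2.58 kb in Ctrl and 1.5, 0.958, 1.31 and 1.24 kb in FGR, a difference of -1.30 kb (SE 0.135, limma adjusted p = 2.75e-05). FGR replicate 4 alone was low in Sdhb H3K9ac, and without it the difference was 0.583 kb (limma adjusted p = 0.0112), while around the start alone, with all libraries, it had the other sign at -0.306 kb (SE 0.212, limma adjusted p = 0.224). Sdhb H3K4me3 turned to -0.210 kb after quantile normalization and was 0.352 kb (limma adjusted p = 0.118) with lists of equal length.

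Sdhc and Sdhd anchor complex II in the membrane. Sdhc (chromosome 1, 171129157 to 171150640; beside Cfap126) had the largest H3K9ac fall of the complex. Sdhc H3K4me3 cover was 0.495, 0.472, 0.471 and 0.583 kb in Ctrl and 1.49, 1.57, 1.5 and 1.42 kb in FGR, a difference of 0.99 kb (SE 0.0656, limma adjusted p = 2.45e-06). Sdhc H3K9ac cover was 3.57, 4.38, 3.86 and 3.84 kb in Ctrl and 2.57, 2.98, 2.32 and 2.25 kb in FGR, a difference of -1.38 kb (SE 0.209, limma adjusted p = 0.000615). Sdhc H3K27ac cover was 5.11, 5.25, 4.97 and 4.97 kb in Ctrl and 3.67, 4.15, 3.73 and 3.85 kb in FGR, a difference of -1.23 kb (SE 0.130, limma adjusted p = 3.09e-05). All Sdhc groups stood apart, but quantile normalization turned the H3K27ac difference to 0.788 kb. Sdhd (chromosome 9, 50596340 to 50603849; ends of Timm8b and Nkapd1 in the window) had the largest H3K4me3 and H3K27ac changes. Sdhd H3K4me3 cover was 0.956, 1.1, 0.919 and 1.14 kb in Ctrl and 1.93, 2.23, 2.18 and 2.07 kb in FGR, a difference of 1.07 kb (SE 0.0924, limma adjusted p = 8.92e-06). Sdhd H3K9ac cover was 2.02, 2.20, 2.04 and 1.53 kb in Ctrl and 1.16, 1.07, 1.55 and 1.11 kb in FGR, a difference of -0.726 kb (SE 0.169, limma adjusted p = 0.00563). Sdhd H3K27ac cover was 2.01, 2.82, 2.05 and 2.65 kb in Ctrl and 0.662, 1.14, 1.17 and 0.71 kb in FGR, a difference of -1.46 kb (SE 0.211, limma adjusted p = 0.000183). Its H3K9ac groups overlapped, through Ctrl replicate 4 and FGR replicate 3, although the test was passed, and quantile normalization turned H3K4me3 to -0.0624 kb.

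Complex III passes electrons from coenzyme Q to cytochrome c. In it, H3K9ac fell at 6 of 8 genes and rose at none, the same counts as after quantile normalization. H3K4me3 rose at all 8, against 1 higher and 5 lower after quantile normalization, and H3K27ac fell at 7, against 2 higher and 0 lower. Uqcrfs1 (chromosome 13, 30540312 to 30545316; no other gene's end in the window) is the Rieske iron-sulfur protein. Uqcrfs1 H3K4me3 cover was 0.75, 0.705, 0.832 and 0.547 kb in Ctrl and 1.64, 1.57, 1.54 and 1.57 kb in FGR, a difference of 0.87 kb (SE 0.0777, limma adjusted p = 1.09e-05). Uqcrfs1 H3K9ac cover was 1.56, 1.62, 2.01 and 1.92 kb in Ctrl and 0.988, 1.01, 0.975 and 0.812 kb in FGR, a difference of -0.833 kb (SE 0.124, limma adjusted p = 0.000581). Uqcrfs1 H3K27ac cover was 1.98, 1.74, 1.73 and 1.85 kb in Ctrl and 1.45, 1.16, 1.27 and 1.36 kb in FGR, a difference of -0.509 kb (SE 0.108, limma adjusted p = 0.00178). The Uqcrfs1 groups stood apart in the 3 marks, with H3K4me3 at -0.0729 kb and H3K27ac at 0.363 kb after quantile normalization.

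Uqcrc1 and Uqcrc2 are the core proteins on the matrix side of complex III. Uqcrc1 (chromosome 9, 108936648 to 108949641; no other gene's end in the window) had the smallest called H3K4me3 and H3K27ac differences of the complex. Uqcrc1 H3K4me3 cover was 0.839, 0.513, 0.49 and 0.642 kb in Ctrl and 0.866, 0.927, 0.957 and 0.927 kb in FGR, a difference of 0.298 kb (SE 0.0892, limma adjusted p = 0.0102). Uqcrc1 H3K9ac cover was 0.964, 0.831, 0.698 and 1.004 kb in Ctrl and 0.969, 1.01, 0.889 and 0.754 kb in FGR, a difference of 0.032 kb (SE 0.106, limma adjusted p = 0.804). Uqcrc1 H3K27ac cover was 0.98, 0.816, 0.916 and 0.811 kb in Ctrl and 0.731, 0.353, 0.691 and 0.592 kb in FGR, a difference of -0.289 kb (SE 0.113, limma adjusted p = 0.0362). The Uqcrc1 H3K27ac call was lost without Ctrl replicate 1, 3 or 4, without FGR replicate 2 or 4 and without replicate 4 of both groups (limma adjusted p = 0.0507 to 0.0913). Quantile normalization turned Uqcrc1 to -0.625 kb in H3K4me3 and 0.275 kb in H3K27ac. Uqcrc2 (chromosome 7, 120635189 to 120659523; beside Pdzd9) had the largest H3K9ac fall of the complex. Uqcrc2 H3K4me3 cover was 1.3, 1.17, 0.364 and 1.08 kb in Ctrl and 1.93, 1.96, 2.04 and 1.96 kb in FGR, a difference of 0.997 kb (SE 0.185, limma adjusted p = 0.000751). Uqcrc2 H3K9ac cover was 2.46, 2.48, 2.87 and 2.58 kb in Ctrl and 1.65, 1.54, 1.47 and 1.56 kb in FGR, a difference of -1.04 kb (SE 0.113, limma adjusted p = 0.000107). Uqcrc2 H3K27ac cover was 2.11, 2.06, 2.39 and 2.12 kb in Ctrl and 1.65, 1.66, 1.41 and 1.60 kb in FGR, a difference of -0.588 kb (SE 0.112, limma adjusted p = 0.000957). Quantile normalization turned Uqcrc2 to -0.111 kb in H3K4me3 and 0.407 kb in H3K27ac and left its H3K9ac lower. Uqcr11 (chromosome 10, 80402997 to 80406821; no other gene's end in the window), a small membrane subunit whose promoter sequence is given with the motifs, had the largest H3K4me3 rise and H3K27ac fall of the complex. Uqcr11 H3K4me3 cover was 0.309, 0, 0 and 0.866 kb in Ctrl and 2.08, 2.66, 2.46 and 2.09 kb in FGR, a difference of 2.03 kb (SE 0.217, limma adjusted p = 2.9e-05). Uqcr11 H3K27ac cover was 3.16, 2.89, 2.74 and 3.2 kb in Ctrl and 1.79, 2.32, 2 and 1.81 kb in FGR, a difference of -1.02 kb (SE 0.155, limma adjusted p = 0.000243). Its H3K4me3 stayed higher after quantile normalization, while its H3K27ac turned to 0.211 kb. Uqcr11 H3K9ac was 2.55 ± 0.107 kb (Ctrl) against 2.27 ± 0.577 kb (FGR) (SD over 4 libraries each) and did not pass.

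Complex IV, cytochrome c oxidase, takes the electrons to oxygen. In H3K9ac, 2 of its 14 genes tested rose and 4 fell, or 0 and 4 after quantile normalization. H3K4me3 rose at 11 of 12 tested, against 1 higher and 4 lower after quantile normalization, and H3K27ac fell at 10 of 12, against 2 higher and 0 lower. Cox4i1 (chromosome 8, 120668225 to 120674209; ends of Gm27021 and Emc8 in the window) is the isoform of subunit 4 found in most tissues and had the largest H3K4me3 rise and H3K27ac fall of the complex. Cox4i1 H3K4me3 cover was 0.371, 0.991, 0.547 and 0.409 kb in Ctrl and 1.97, 2.06, 1.94 and 1.88 kb in FGR, a difference of 1.38 kb (SE 0.136, limma adjusted p = 1.82e-05). Cox4i1 H3K9ac cover was 2.31, 1.92, 2.45 and 2.24 kb in Ctrl and 2.91, 3.29, 3.22 and 1.46 kb in FGR, a difference of 0.490 kb (SE 0.374, limma adjusted p = 0.274). Cox4i1 H3K27ac cover was 2.23, 2.20, 1.67 and 2.32 kb in Ctrl and 0.885, 0.805, 1.41 and 0.986 kb in FGR, a difference of -1.08 kb (SE 0.178, limma adjusted p = 0.000397). Cox4i1 H3K9ac was above all Ctrl libraries in FGR replicates 1 to 3 and below them in replicate 4. Without FGR replicate 4 the difference was 0.910 kb (limma adjusted p = 0.00187). Quantile normalization ended the H3K4me3 and H3K27ac calls of Cox4i1. Cox5b (chromosome 1, 36691487 to 36693388; no other gene's end in the window) binds zinc in the complex. Cox5b H3K4me3 cover was 0.549, 0.636, 0.577 and 0.396 kb in Ctrl and 1.17, 1.22, 1.3 and 1.24 kb in FGR, a difference of 0.693 kb (SE 0.0747, limma adjusted p = 3.05e-05). Cox5b H3K9ac cover was 1.16, 1.31, 0.981 and 1.18 kb in Ctrl and 1.13, 1.20, 1.27 and 1.11 kb in FGR, a difference of 0.0205 kb (SE 0.0986, limma adjusted p = 0.865). Cox5b H3K27ac cover was 0.918, 1.25, 0.984 and 0.813 kb in Ctrl and 0.519, 0.731, 0.554 and 0.329 kb in FGR, a difference of -0.459 kb (SE 0.13, limma adjusted p = 0.00844). Quantile normalization turned Cox5b to -0.193 kb in H3K4me3 and 0.108 kb in H3K27ac. Cox7a2l (chromosome 17, 83501917 to 83514333; no other gene's end in the window), which helps complexes III and IV to assemble into a supercomplex, had the largest H3K9ac fall. Cox7a2l H3K4me3 cover was 1.48, 0.711, 0.32 and 0.828 kb in Ctrl and 1.92, 1.79, 2.17 and 1.88 kb in FGR, a difference of 1.10 kb (SE 0.221, limma adjusted p = 0.00116). Cox7a2l H3K9ac cover was 2.10, 2.39, 2.5 and 2.34 kb in Ctrl and 1.08, 1.17, 1.04 and 1.08 kb in FGR, a difference of -1.24 kb (SE 0.105, limma adjusted p = 3.1e-05). Cox7a2l H3K27ac cover was 2.38, 2.11, 2.2 and 2.22 kb in Ctrl and 1.18, 1.93, 1.82 and 1.48 kb in FGR, a difference of -0.625 kb (SE 0.165, limma adjusted p = 0.00586). The groups of Cox7a2l stood apart in each mark, and quantile normalization took its H3K4me3 to 0.0564 kb (limma adjusted p = 0.881), which ended the call, and turned its H3K27ac to 0.389 kb.

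Cox5a and Cox7a2, subunits found in most tissues, were at or near 0 in the gene-end windows, and their listed starts lie inside the annotated genes. The Cox5a start (chromosome 9, 57521232) is 3904 bp from the nearer end of the gene (chromosome 9, 57517328 to 57532427), and the Cox7a2 start (chromosome 9, 79759853) is 4612 bp from it (chromosome 9, 79755241 to 79771422). Around the start alone, Cox5a H3K4me3 was 0, 0, 0.601 and 0.399 kb in Ctrl and 1.76, 1.80, 1.87 and 1.79 kb in FGR, a difference of 1.56 kb (SE 0.139, limma adjusted p = 9.68e-06). Cox5a start H3K9ac was 1.99, 1.89, 1.96 and 1.84 kb in Ctrl and 1.20, 1.14, 1.07 and 1.18 kb in FGR, a difference of -0.769 kb (SE 0.0772, limma adjusted p = 3.93e-05). Cox5a start H3K27ac was 2.71, 1.6, 2.11 and 2.35 kb in Ctrl and 1.27, 1.47, 1.17 and 0.956 kb in FGR, a difference of -0.973 kb (SE 0.213, limma adjusted p = 0.00177). Cox5a thus had the frequent combination of longer H3K4me3 and shorter acetyl marks, which its gene-end value did not show. Cox7a2 start cover was 0.433 ± 0.332 kb (Ctrl) against 1.62 ± 0.0842 kb (FGR) of H3K4me3 (limma adjusted p = 7.96e-05). In H3K9ac the Cox7a2 start had 1.45 ± 0.0859 kb (Ctrl) against 0.654 ± 0.131 kb (FGR) (limma adjusted p = 9.66e-05; SD over 4 libraries each).

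Complex V, ATP synthase, rose in H3K4me3 at all 17 genes, against 4 higher and 4 lower after quantile normalization. H3K9ac fell at 9 and rose at 1, or 8 and 1 after quantile normalization, and H3K27ac fell at 16, against 2 higher and 1 lower. Atp5b (chromosome 10, 128083307 to 128090388; beside Baz2a) is the beta subunit, which holds the catalytic sites. Atp5b H3K4me3 cover was 2.82, 2.64, 2.06 and 1.09 kb in Ctrl and 3.37, 3.57, 3.55 and 3.55 kb in FGR, a difference of 1.35 kb (SE 0.333, limma adjusted p = 0.00369). Atp5b H3K9ac cover was 4.33, 3.8, 4.07 and 3.80 kb in Ctrl and 3.37, 3.42, 3.11 and 3.01 kb in FGR, a difference of -0.775 kb (SE 0.154, limma adjusted p = 0.00255). Atp5b H3K27ac cover was 4.23, 4.5, 4.29 and 4.21 kb in Ctrl and 2.68, 2.16, 2.14 and 2.19 kb in FGR, a difference of -2.01 kb (SE 0.142, limma adjusted p = 4.3e-06). Its H3K27ac fall was the largest of all members in the gene-end windows, but the call was lost after quantile normalization. Its H3K4me3 turned to -0.503 kb after quantile normalization, and its H3K9ac around the start alone did not pass (-0.237 kb (SE 0.108, limma adjusted p = 0.0816)). Atp5a1, the alpha subunit (beside Haus1), pairs with it in the catalytic head. Atp5a1 H3K4me3 cover was 1.36, 1.46, 0.919 and 0.691 kb in Ctrl and 2.16, 1.97, 2.27 and 1.91 kb in FGR, a difference of 0.971 kb (SE 0.177, limma adjusted p = 0.000676). Atp5a1 H3K9ac cover was 2.23, 2.18, 1.86 and 1.56 kb in Ctrl and 1.57, 1.50, 1.53 and 1.26 kb in FGR, a difference of -0.49 kb (SE 0.161, limma adjusted p = 0.0276). Atp5a1 H3K27ac cover was 1.55, 1.53, 1.89 and 1.83 kb in Ctrl and 1.05, 1.06, 1.16 and 1.03 kb in FGR, a difference of -0.627 kb (SE 0.115, limma adjusted p = 0.000737). The Atp5a1 H3K9ac groups overlapped, and its call was lost without Ctrl replicate 1 (limma adjusted p = 0.0755), Ctrl replicate 2 (0.0747) or FGR replicate 4 (0.0658), at the stricter peak threshold (-0.303 kb, 0.123), with no filter (0.0603) and after quantile normalization. Quantile normalization turned Atp5a1 to -0.198 kb in H3K4me3 and 0.153 kb in H3K27ac, and within 1 kb of the gene ends its H3K4me3 was 0.318 kb (limma adjusted p = 0.0657). Atp5c1 (chromosome 2, 10056030 to 10080510; beside Kin) is the gamma subunit, the shaft that turns in the head. Atp5c1 H3K4me3 cover was 1.02, 1.58, 1.24 and 1.34 kb in Ctrl and 2.30, 2.28, 2.12 and 2.25 kb in FGR, a difference of 0.946 kb (SE 0.117, limma adjusted p = 6.86e-05). Atp5c1 H3K9ac cover was 2.03, 1.88, 2.19 and 1.74 kb in Ctrl and 1.27, 1.40, 1.33 and 1.24 kb in FGR, a difference of -0.654 kb (SE 0.115, limma adjusted p = 0.00133). Atp5c1 H3K27ac cover was 2.32, 2.6, 2.66 and 2.16 kb in Ctrl and 1.88, 1.54, 2.10 and 1.82 kb in FGR, a difference of -0.599 kb (SE 0.155, limma adjusted p = 0.00531). Its groups stood apart in the 3 marks, with H3K4me3 at -0.333 kb and H3K27ac at 0.505 kb after quantile normalization.

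Atp5d and Atp5md marked the ends of the H3K9ac range in complex V. Atp5d (chromosome 10, 80138698 to 80145828; ends of Cbarp and Midn in the window), the delta subunit at the foot of the shaft, had the largest H3K9ac rise of all members. Atp5d H3K4me3 cover was 0, 0.268, 0.16 and 0.106 kb in Ctrl and 2.31, 2.63, 2.47 and 1.72 kb in FGR, a difference of 2.15 kb (SE 0.181, limma adjusted p = 8.05e-06). Atp5d H3K9ac cover was 1.83, 1.92, 1.45 and 1.49 kb in Ctrl and 4.78, 5.11, 5.11 and 4.06 kb in FGR, a difference of 3.09 kb (SE 0.239, limma adjusted p = 1.98e-05). Atp5d H3K27ac cover was 2.24, 1.85, 1.73 and 2.02 kb in Ctrl and 1.05, 1.32, 1.24 and 1.17 kb in FGR, a difference of -0.764 kb (SE 0.129, limma adjusted p = 0.000455). The listed start of Atp5d (chromosome 10, 80142275) lies 3553 bp from the nearer gene end, and around it H3K9ac was 1.96 ± 0.185 kb (Ctrl) against 2.14 ± 0.0883 kb (FGR), which did not pass (limma adjusted p = 0.168). The H3K9ac rise of Atp5d was thus called in the gene-end windows, which hold ends of its neighbours, and not around its start. After quantile normalization the Atp5d rises remained and its H3K27ac turned to 0.089 kb. Atp5md (chromosome 19, 47083471 to 47090647; ends of Taf5 and Pdcd11 in the window) is a small subunit where 2 synthases meet. Atp5md H3K9ac cover was 2.62, 1.88, 2.77 and 2.41 kb in Ctrl and 1.51, 1.24, 1.31 and 1.25 kb in FGR, a difference of -1.09 kb (SE 0.186, limma adjusted p = 0.00116). Atp5md H3K4me3 was 1.08 ± 0.173 kb (Ctrl) against 1.8 ± 0.0811 kb (FGR), turned to -0.364 kb by quantile normalization, and H3K27ac 2.15 ± 0.0985 kb (Ctrl) against 1.23 ± 0.111 kb (FGR) (SD over 4 libraries each).

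**Figure D5:**
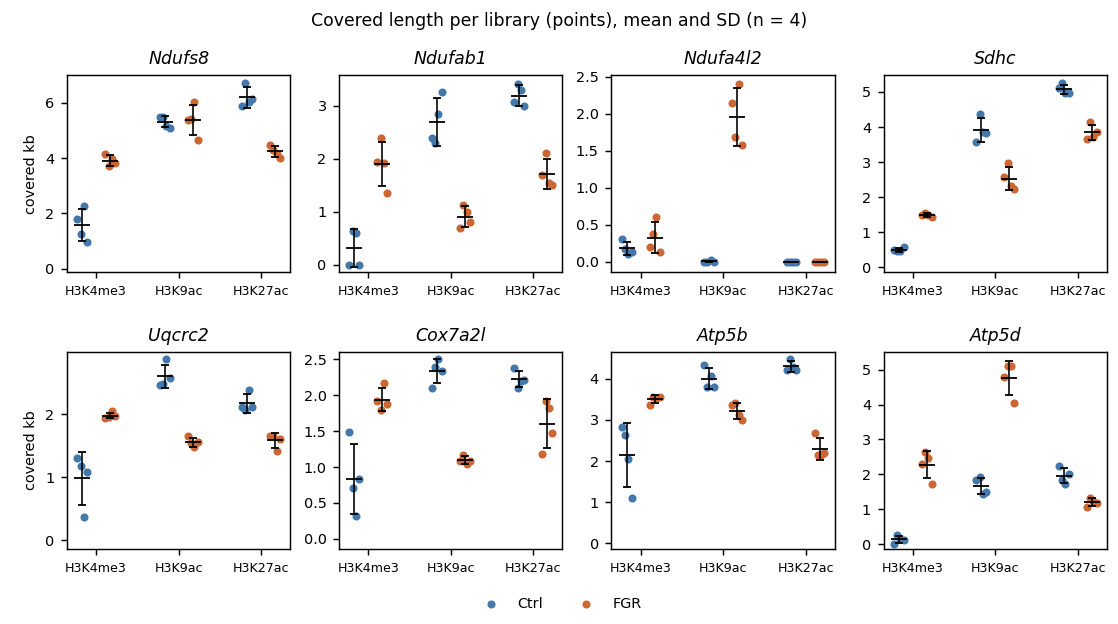
Covered kb (vertical axis) of Ndufs8, Ndufab1, Ndufa4l2, Sdhc, Uqcrc2, Cox7a2l, Atp5b and Atp5d in each Ctrl and FGR library of 3 marks (points), with the mean and SD of 4 libraries (horizontal and vertical lines). H3K9ac of Atp5d and Ndufa4l2 lies higher in all FGR libraries, and that of Ndufab1, Sdhc, Uqcrc2, Cox7a2l and Atp5b lower.

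The isoforms made mainly in particular tissues had little cover. Of the 8 isoforms, 6 could be tested in H3K9ac and 3 rose, Ndufa4l2, Cox4i2 and Cox6b2, of which Ndufa4l2 alone stayed called after quantile normalization. A gene at or near 0 in Ctrl can only rise, and Ndufa4l2 and Cox8b could be tested only because of their FGR peaks, so the direction of these calls is no finding. Cox4i2 and Cox7a1, at 0 in all Ctrl libraries of H3K4me3, entered the H3K4me3 test in the same way. Ndufa4l2 (chromosome 10, 127509274 to 127517154; ends of Stac3 and Shmt2 in the window) is a relative of Ndufa4 induced by hypoxia. Ndufa4l2 H3K9ac cover was 0, 0, 0.023 and 0 kb in Ctrl and 2.15, 1.68, 2.40 and 1.58 kb in FGR, a difference of 1.95 kb (SE 0.178, limma adjusted p = 4.44e-05). Ndufa4l2 H3K4me3 cover was 0.314, 0.17, 0.111 and 0.133 kb in Ctrl and 0.204, 0.377, 0.604 and 0.131 kb in FGR, a difference of 0.147 kb (SE 0.111, limma adjusted p = 0.224). No library had an H3K27ac peak at Ndufa4l2, and its H3K4me3 groups overlapped, with -0.487 kb after quantile normalization. Cox4i2 (chromosome 2, 152753916 to 152765039; no other gene's end in the window) is the subunit 4 isoform known from lung. Cox4i2 H3K9ac cover was 0.363, 0, 0.072 and 0 kb in Ctrl and 1.36, 0.668, 0.252 and 0.875 kb in FGR, a difference of 0.680 kb (SE 0.218, limma adjusted p = 0.0246). Cox4i2 H3K4me3 cover was 0 in all Ctrl libraries and 0.164, 0.257, 0.122 and 0 kb in FGR, a difference of 0.136 kb (SE 0.0722, limma adjusted p = 0.0973). Cox4i2 H3K27ac cover was 0, 0.144, 0 and 0 kb in Ctrl and 0.2, 0, 0 and 0 kb in FGR, a difference of 0.014 kb (SE 0.0977, limma adjusted p = 0.898). The Cox4i2 H3K9ac call was lost without Ctrl replicate 2 (limma adjusted p = 0.0619), 3 (0.0566) or 4 (0.0623) or FGR replicate 4 (0.0522) and without replicate 4 of both groups (0.109). It was also lost with lists of equal length (0.0574), at the stricter threshold (0.0612), with no filter (0.0669) and after quantile normalization, where Cox4i2 H3K9ac was 0.362 kb (limma adjusted p = 0.267). Its H3K4me3 was 0.181 kb (limma adjusted p = 0.0370) without FGR replicate 4 and -0.264 kb after quantile normalization.

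Cox6a2, Cox7a1 and Cox8b are the heart and skeletal muscle isoforms of complex IV. Cox6a2 (chromosome 7, 128205435 to 128206366; beside Itgad, which encodes an integrin of leukocytes) had no H3K4me3 peak in any library. Cox6a2 H3K27ac cover was 1.06, 0.796, 0.908 and 0.579 kb in Ctrl and 0, 0.327, 0 and 0 kb in FGR, a difference of -0.755 kb (SE 0.133, limma adjusted p = 0.000600). Cox6a2 H3K9ac cover was 0.669, 0, 0.476 and 0.593 kb in Ctrl and 0.467, 0.554, 0.403 and 0.473 kb in FGR, a difference of 0.0398 kb (SE 0.148, limma adjusted p = 0.826). Cox7a1 (chromosome 7, 30184171 to 30186030, beside Capns1) had H3K4me3 peaks in FGR alone. Cox7a1 H3K4me3 cover was 0 in all Ctrl libraries and 0.856, 0.92, 0.994 and 0.922 kb in FGR, a difference of 0.923 kb (SE 0.0615, limma adjusted p = 2.49e-06). Cox7a1 could be tested in H3K4me3 only because of its FGR peaks, so the direction of this call is no finding. Cox7a1 H3K9ac cover was 0.631, 0.578, 0.703 and 0.324 kb in Ctrl and 0.872, 0.692, 0.86 and 1.02 kb in FGR, a difference of 0.303 kb (SE 0.117, limma adjusted p = 0.0502). Cox7a1 H3K27ac cover was 0, 0.836, 0 and 0.421 kb in Ctrl and 0.416, 0.477, 0.388 and 0.258 kb in FGR, a difference of 0.0705 kb (SE 0.182, limma adjusted p = 0.726). Cox7a1 H3K9ac passed around the start alone (0.303 kb, limma adjusted p = 0.0373), without Ctrl replicate 3 (0.351 kb, 0.0449) and without FGR replicate 2 (0.360 kb, 0.0297). Its H3K27ac passed as higher after quantile normalization (0.438 kb). Cox8b (chromosome 7, 140898942 to 140900446; beside Psmd13) had peaks of H3K9ac in FGR alone among the 3 marks. Cox8b H3K9ac cover was 0 in all Ctrl libraries and 0.254, 1.04, 0.426 and 0 kb in FGR, a difference of 0.431 kb (SE 0.199, limma adjusted p = 0.0903). Without FGR replicate 4, which had none, the Cox8b difference was 0.575 kb (limma adjusted p = 0.0269). The 3 heart and skeletal muscle markers Ckm, Myh6 and Acta1 were at 0 in all Ctrl libraries of the 3 marks. In FGR they summed to 0.326 to 2.61 kb of H3K9ac and 0.666 to 0.704 kb of H3K4me3 and stayed at 0 in H3K27ac. Their part in these values was not tested.

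Cox6b2, Cox7b2 and Cox8c are isoforms of the testis. Cox6b2 (chromosome 7, 4751792 to 4753094; beside Fam71e2) H3K4me3 cover was 0, 0, 0.494 and 0.346 kb in Ctrl and 0.662, 0.741, 0.765 and 0.767 kb in FGR, a difference of 0.524 kb (SE 0.121, limma adjusted p = 0.00258). Cox6b2 H3K9ac cover was 0.286, 0, 0.304 and 0 kb in Ctrl and 0.412, 0.912, 1.03 and 0.611 kb in FGR, a difference of 0.593 kb (SE 0.156, limma adjusted p = 0.0102). No FGR library of Cox6b2 reached down to the Ctrl range, but quantile normalization turned its H3K4me3 to -0.229 kb and ended its H3K9ac call, at 0.275 kb (limma adjusted p = 0.22). Cox7b2 (chromosome 5, 71442823 to 71548205) and Cox8c (chromosome 12, 102899306 to 102900534) had no peak of the 3 active marks in any library and are described with H3K9me3.

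H3K9me3, the mark of silent chromatin, covered few members, and its lists cannot be compared evenly. The broad lists of Ctrl replicates 1 to 3 reach down to a −log10 p of 1 and those of FGR to a −log10 q of 1.01 to 1.05, and they cover 288 to 480 Mb in Ctrl and 10.1 to 15.3 Mb in FGR. Of 26 members tested over replicates 1 to 3, 9 fell and none rose (none at an unadjusted p under 0.05 by limma either). Of all 10313 genes tested, 34.9% fell and 0.0873% rose, and for the members quantile normalization gave 2 lower and 1 higher. H3K9me3 covered 20 to 40 of the 88 members in each Ctrl library of the test and 0 to 1 in each FGR library. The members thus entered the test through their Ctrl peaks, so the direction of these calls and the absence of rises are no finding. Leaving out any 1 FGR library kept 4 of the 9 calls, leaving out 1 Ctrl library gave 13 to 18 falls, and the replicate number as a block gave 5. The 9 were Ndufa12, Ndufs6, Ndufv3, Sdha, Uqcrb, Uqcrh, Cox7a2l, Cox7b2 and Cox8c. Cox7b2 H3K9me3 cover was 3.38, 3.34 and 2.14 kb in Ctrl and 0 in all FGR libraries, a difference of -2.95 kb (SE 0.354, limma adjusted p = 0.00235). Sdha H3K9me3 cover was 2.51, 2.17 and 1.87 kb in Ctrl and 0 in all FGR libraries, a difference of -2.19 kb (SE 0.2, limma adjusted p = 0.000868). Cox8c H3K9me3 cover was 0.973, 0.743 and 0.874 kb in Ctrl and 0 in all FGR libraries, a difference of -0.863 kb (SE 0.143, limma adjusted p = 0.00722). The FGR libraries were at 0 for these 3 genes, and the Cox8c call was lost without any 1 of the FGR replicates (limma adjusted p = 0.0558 to 0.0574) and within 1 kb of the gene ends (0.165). Among the 9, FGR cover was listed only at Ndufs6 in replicate 3 (0.395 kb) and at Cox7a2l in replicate 1 (0.201 kb). Uqcrc1 passed as lower without Ctrl replicate 2 (-0.985 kb, limma adjusted p = 0.0106) and Uqcrc2 without Ctrl replicate 3 (-0.500 kb, limma adjusted p = 0.0223). With lists cut to equal length 1 member could be tested and none passed, so the 9 falls cannot be told apart from the difference in list thresholds.

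Genes that work beside the chain were counted in the same way. Their counts are to be read beside the 30.0% of all genes that fell and the 28.5% that rose in H3K9ac. No difference between lists was tested, nor the part of genes without Ctrl cover, which can only rise. H3K9ac fell at 28 (62.2%) and rose at 3 (6.67%) of 45 assembly factors, with Cox20 at 2.87 ± 0.121 kb (Ctrl) against 1.46 ± 0.0499 kb (FGR; SD over 4 libraries; limma adjusted p = 9.82e-06). Of the 14 genes of cytochrome c and coenzyme Q synthesis, 6 (42.9%) fell and 1 (7.14%) rose in H3K9ac. Of 14 citric acid cycle genes, 7 (50%) fell and 1 (7.14%) rose, with Cs, citrate synthase, at 1.60 ± 0.0417 and 0.754 ± 0.0406 kb (limma adjusted p = 5.15e-05). Of 78 genes of the mitochondrial ribosome, 31 (39.7%) fell and 5 (6.41%) rose, with Mrps28 at 2.16 ± 0.171 and 0.862 ± 0.115 kb (limma adjusted p = 3.71e-05). These H3K9ac counts kept their direction after quantile normalization, with 29 lower and 3 higher, 7 and 1, 6 and 0, and 32 and 8.

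Of 19 regulators of respiratory chain genes tested in H3K9ac, 8 (42.1%) fell and 6 (31.6%) rose, or 9 and 5 after quantile normalization. Ppargc1a, the PGC-1alpha coactivator of mitochondrial genes, had no H3K9ac peak in Ctrl and 1.58 ± 0.246 kb (SD over 4 libraries) in FGR (limma adjusted p = 2.34e-05). Gabpb1, the partner of GABPA, had 1.58 ± 0.234 kb in Ctrl and 0 in every FGR library (limma adjusted p = 2.01e-05). Ppargc1a could be tested only through its FGR peaks and Gabpb1 only through its Ctrl peaks. Each was named for the smallest p of its list in its direction, so the direction of these calls is no finding. Nrf1, the gene of NRF1, fell in H3K27ac from 3.53 ± 0.213 to 1.73 ± 0.128 kb (limma adjusted p = 4.71e-06). Yy1 rose in H3K4me3 from 0.787 ± 0.182 to 3.57 ± 0.0677 kb (limma adjusted p = 2.54e-07). H3K4me3 rose at all 45 assembly factors, 14 carriers, 19 regulators tested and 13 citric acid cycle genes tested and at 77 of 78 ribosome genes, and H3K27ac fell at 30 of 45, 13 of 14, 15 of 16, 12 of 14 and 71 of 77, where 95.5% of all genes rose in H3K4me3 and 81.6% fell in H3K27ac; after quantile normalization the H3K4me3 counts were 3 higher and 16 lower, 2 and 7, 3 and 3, 1 and 0, and 4 and 23, and those of H3K27ac 7 higher and 3 lower, 1 and 0, 1 and 4, 3 and 2, and 5 and 9.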

How the data were processed

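Peak lists of 4 marks in hippocampal microglia were analysed, with 4 libraries per mark and group; the 2 input libraries were not analysed here. The submitters' processing notes name the mm10 build and, without roles or settings, DiffBind 3.12.0, MACS2 2.2.7.1, SAMtools 1.3.1, Bowtie2 2.4.5 and Trim Galore 0.6.5. The deposited lists give each peak's position with a score, a fold enrichment (ratio), a −log10 p-value and a −log10 q-value from the authors' peak caller. Lists are narrow, except the broad H3K9me3 lists of replicates 1 to 3; the narrow H3K9me3 lists of replicate 4 were left out of the test.

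Covered kb within 2.5 kb of either gene end (RefSeq, GRCm38.p6, the mm10 assembly) was summed after merging peaks. FGR minus Ctrl was fitted per mark with limma 3.58.1 (lmFit, eBayes; R 4.3.3) on all genes covered in at least 2 libraries, two-sided, with Benjamini-Hochberg adjustment over all of them and a threshold of 0.05; tables were made with Python 3.11.15, NumPy 2.4.6 and pandas 2.3.3, and figures with Matplotlib 3.10.9. The fit was also run on simulated normal values that lay away from the floor of no cover, with few genes shifted. The lists here hold many genes without a peak and, in H3K4me3 and H3K27ac, differences at most genes. That run therefore does not test the calls given here. Members and lists were chosen with earlier results of these data known. Values in every library are given for core subunits, for the largest rise and fall per complex and mark, and for tissue-restricted isoforms; of other lists, genes with the smallest p per direction may be named. Alternatives were quantile normalization, lists of equal length, a −log10 q of at least 3, a 1 kb window, the start window alone, no filter, a replicate block and leaving out libraries. A member of complex I is counted but its values are not reported here. Depth is unknown, so no counting interval is given.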

Additional observations from a re-analysis of the deposited data

Results flagged for a closer look

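In 170 groups of 4 libraries, 10 had 1 library far from the other 3 by Dixon's test, where chance flags about 5% of groups. In H3K4me3, Ndufv1 had 1 Ctrl library at 0.596 kb with the others at 0. Atp5b had 1 FGR H3K4me3 library at 3.369 kb (others 3.546 to 3.567 kb), and Ndufv1 had 1 at 1.509 kb (others 1.098 to 1.108 kb). In H3K9ac of Ctrl, Ndufa4l2 had 1 library at 0.023 kb with the others at 0, and Ndufv1 had 1 at 1.056 kb (others 1.191 to 1.213 kb). In H3K27ac of Ctrl, Cox4i2 had 1 library at 0.144 kb with the others at 0. In H3K27ac of FGR, Atp5b had 1 library at 2.679 kb (others 2.14 to 2.189 kb), while Cox4i2 at 0.2 kb, Cox5a at 0.149 kb and Cox6a2 at 0.327 kb each had 1 library with a peak and the others at 0.

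The narrow H3K9me3 lists of replicate 4, outside the test, held 257 peaks in Ctrl and 11204 in FGR. A peak near a member was found at 2 genes in FGR, Ndufa12 and Ndufa9, and at 0 in Ctrl.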

How the results depend on the processing

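Quantile normalization changed most: H3K4me3 went to 11 members higher and 25 lower, H3K27ac to 10 and 3 and H3K9me3 to 1 and 2. Over all members it changed the sign of 51 of the 79 H3K4me3 calls, 40 of the 69 H3K27ac calls and 1 of the 51 H3K9ac calls. Among the genes that the naming rule gives for a mark, the sign changed in H3K4me3 for Atp5a1 (-0.198 kb), Atp5b (-0.503), Atp5c1 (-0.333), Cox4i2 (-0.264), Cox5b (-0.193), Cox6b2 (-0.229), Ndufa4l2 (-0.487), Ndufs1 (-0.335), Ndufv2 (-0.018), Sdha (-0.150), Sdhb (-0.210), Sdhd (-0.062), Uqcrc1 (-0.625), Uqcrc2 (-0.111) and Uqcrfs1 (-0.073), and in H3K27ac Atp5a1 (0.153 kb), Atp5c1 (0.505), Cox5b (0.108), Ndufs8 (0.354), Ndufv2 (0.206), Sdha (0.114), Sdhc (0.788), Uqcr11 (0.211), Uqcrc1 (0.275), Uqcrc2 (0.407) and Uqcrfs1 (0.363). The start window reversed H3K9ac of Ndufs7 (-0.543 kb); the cause was not tested. Members lower in H3K9me3 numbered 3 within 1 kb, 2 around the start alone and 0 with lists of equal length, and no member could be tested at the stricter threshold. Leaving out 1 library, or replicate 4 of both groups, gave 75 to 79 members higher in H3K4me3 and 0 lower, 7 to 12 higher and 34 to 45 lower in H3K9ac, 61 to 67 lower and 0 higher in H3K27ac, and 4 to 18 lower and 0 higher in H3K9me3. With the replicate number as a block, 75 rose in H3K4me3, and 9 rose and 39 fell in H3K9ac. In that fit 68 fell in H3K27ac and 5 fell in H3K9me3. Deviations of same-numbered libraries of the groups had correlations of -0.021 to 0.034, and not every library correlated best with its own number. The labels do not say whether same-numbered libraries share an animal, litter or day, and these correlations cannot decide it. Peak width and list length set what covered kb can show, since read depth is unknown.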
